A study of Mus musculus with 59 samples.

Results

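BCL6 is a zinc finger transcriptional repressor of the BTB family that recruits the corepressors NCoR, SMRT and BCOR, and it is best known from germinal center B cells, where it holds down genes such as *Prdm1*. Its zinc fingers read an element that resembles the binding site of STAT factors, so that BCL6 and STATs can occupy the same DNA. PPARα and PPARδ are lipid-activated nuclear receptors that bind, as dimers with RXR, to direct repeats of the nuclear receptor half-site. In liver, PPARα activates fatty acid oxidation and ketone body synthesis during fasting.

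Regions at which BCL6 was called in both fed and fasted liver, with neither PPARα nor PPARδ called near the fed BCL6 center, were examined here. They were chosen by the peak lists themselves: a fed BCL6 peak was a member if a fasted BCL6 peak center lay within 200 bp and no center of the fed or fasted PPARα and PPARδ lists did. This left 797 members of 15642 fed BCL6 peaks, or 5.10%. The rule measures from the fed center, and 8 members (1.0%) had a PPAR center within 200 bp of their fasted BCL6 center, those at *Adamts5* and *G6pc* among them. The lists come from livers of male C57BL/6 mice, either fed ad libitum or fasted overnight, with 3 biological replicates behind each list. A further list, BCL6 in fed livers of *Bcl6* fl/fl mice, took no part in the choice. These mice carry *Bcl6* alleles with loxP sites and no Cre, and served the study as controls of its hepatocyte knockout. The lists combine hepatocytes with the other cells of whole liver, and cannot by themselves tell which cells a peak came from. For BCL6, the paper obtained much the same peaks with hepatocyte knockout livers as background, and took its sites as binding in hepatocytes.

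Each list gives positions only, in mm10 coordinates, with no height, score or read number. The depth is therefore unknown, and a region without a call may hold weaker binding or none. The lists ranged from 2399 peaks for fasted PPARδ to 29085 for fasted PPARα. BCL6 lists held 15642 peaks in fed, 9613 in fasted and 17454 in floxed fed livers. Because replicates are pooled in the lists, tests below take peaks as units, which are not replicates. Confidence intervals are 95% Wilson intervals for shares and exact intervals for odds ratios, and both cover counting error only.

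The regions printed below were picked from members with a recognizable BCL6 or STAT element near their center, and do not represent the whole class. Only 173 members (21.7%) held the BCL6 element or the STAT palindrome in the central 50 bp. Sequences are from the mm10 reference, plus strand, 217 bases each with both end bases of the peak included. Capitals mark the 9-base BCL6 element TTCCTAGAA with at most 1 mismatch, or the STAT palindrome TTCNNNGAA, within the central 50 bp on either strand. Of 165 such members on the chromosomes considered, 7 reached into a UTR and were not eligible. The 7 at genes of the growth hormone and STAT, lymphocyte target and corepressor lists or at the 10 genes with the most members are shown, together with the 2 nearest to the transcription start site (TSS) of any other gene. In order of appearance they lie at chr10:44454958-44455174 in intron 2 of *Prdm1*, chr16:24012070-24012286 upstream of *Bcl6*, chrX:12122668-12122884 in intron 1 of *Bcor*, chr7:49293095-49293311 in intron 1 of *Nav2*, chr10:98857333-98857549 upstream of *Atp2b1*, chr14:21273716-21273932 in intron 6 of *Adk*, chr5:81686943-81687159 in intron 14 of *Adgrl3*, chr11:98682315-98682531 upstream of *Psmd3* and chr7:43579327-43579543 upstream of *Zfp719*.
Prdm1: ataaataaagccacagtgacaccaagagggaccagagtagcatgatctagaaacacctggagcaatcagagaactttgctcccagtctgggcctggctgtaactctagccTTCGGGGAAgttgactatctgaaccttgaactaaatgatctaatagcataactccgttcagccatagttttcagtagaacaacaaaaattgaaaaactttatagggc
Bcl6: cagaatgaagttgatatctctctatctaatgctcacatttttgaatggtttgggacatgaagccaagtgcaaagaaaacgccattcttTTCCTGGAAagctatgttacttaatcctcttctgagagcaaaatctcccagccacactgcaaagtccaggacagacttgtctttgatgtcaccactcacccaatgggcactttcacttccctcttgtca
Bcor: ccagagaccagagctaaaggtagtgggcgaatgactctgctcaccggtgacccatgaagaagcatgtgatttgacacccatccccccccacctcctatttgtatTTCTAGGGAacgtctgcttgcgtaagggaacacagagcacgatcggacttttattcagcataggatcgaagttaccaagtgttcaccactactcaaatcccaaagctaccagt
Nav2: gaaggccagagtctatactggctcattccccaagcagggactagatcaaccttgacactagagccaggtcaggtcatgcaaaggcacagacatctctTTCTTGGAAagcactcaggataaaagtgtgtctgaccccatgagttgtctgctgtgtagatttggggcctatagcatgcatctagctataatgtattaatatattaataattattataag
Atp2b1: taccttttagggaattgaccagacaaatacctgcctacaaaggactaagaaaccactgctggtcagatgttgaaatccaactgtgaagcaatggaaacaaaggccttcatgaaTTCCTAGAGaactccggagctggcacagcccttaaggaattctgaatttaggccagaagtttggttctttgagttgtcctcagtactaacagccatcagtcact
Adk: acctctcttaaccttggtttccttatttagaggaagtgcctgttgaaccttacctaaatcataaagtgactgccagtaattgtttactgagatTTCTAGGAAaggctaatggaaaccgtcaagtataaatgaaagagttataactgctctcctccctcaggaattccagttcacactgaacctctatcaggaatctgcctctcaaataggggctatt
Adgrl3: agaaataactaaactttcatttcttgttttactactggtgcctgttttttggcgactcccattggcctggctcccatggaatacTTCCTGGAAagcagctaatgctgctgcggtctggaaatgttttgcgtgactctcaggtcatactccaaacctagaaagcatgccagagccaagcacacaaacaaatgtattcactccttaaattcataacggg
Psmd3: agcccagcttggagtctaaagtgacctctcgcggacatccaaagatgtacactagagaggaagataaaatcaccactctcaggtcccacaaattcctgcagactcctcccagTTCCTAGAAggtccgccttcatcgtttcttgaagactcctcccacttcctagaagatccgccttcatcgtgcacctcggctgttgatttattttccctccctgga
Zfp719: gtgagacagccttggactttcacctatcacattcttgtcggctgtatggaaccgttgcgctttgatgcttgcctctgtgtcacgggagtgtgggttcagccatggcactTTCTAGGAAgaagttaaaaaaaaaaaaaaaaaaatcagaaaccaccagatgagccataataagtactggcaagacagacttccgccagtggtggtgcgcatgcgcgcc
The word in the *Prdm1* intron, TTCGGGGAA, matched the STAT palindrome and not the BCL6 consensus. At *Bcl6* the word TTCCTGGAA matched both. Exact BCL6 elements were found at *Adk*, at *Zfp719* and at *Psmd3*, where the peak held 2 exact copies, of which 1 fell inside the central window. Of these 9 regions, 8 were also called in floxed livers and that at *Zfp719* was not.

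Members made up 23.8% (22.4% to 25.3%) of the 3345 fed BCL6 peaks without a PPAR peak. Among the 12297 fed BCL6 peaks with a PPAR peak, 55.8% (54.9% to 56.7%) had a fasted BCL6 peak. These shares follow from the lists that define the classes and were not tested. Members were thus a small class, 10.4% of the 7656 fed BCL6 peaks that had a fasted counterpart. The fasted center lay a median of 25 bp (quartiles 11 and 43 bp) from the fed center of a member, close to the 24 bp (11 and 44 bp) at BCL6 peaks kept with a PPAR peak. No 2 members shared a fasted peak. Just inside the limit, members lay 195, 191 and 187 bp from a fasted BCL6 center, and the nearest regions left out lay 201, 206 and 219 bp away.

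Most members lay well beyond the 200 bp limit of the rule from any called PPAR center. These distances are to the lists that the rule used, and other classes were not measured for comparison, so they are descriptions only. The median distance from a member to the nearest PPARα or PPARδ center was 6.94 kb (quartiles 1.54 and 27.8 kb), and 649 members (81.4%) lay over 1000 bp from any. At the edge of the rule, the nearest members were 201, 206 and 208 bp away, while BCL6 peaks kept with PPAR reached 196, 192 and 191 bp. Between 200 and 500 bp there were 92 members (11.5%). The nearest center belonged to fasted PPARα at 449 members, fed PPARα at 280, fed PPARδ at 52 and fasted PPARδ at 16, in the order of the sizes of those lists. Whether weak PPAR binding below the calling threshold was present at members was not tested.

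**Figure D1:**
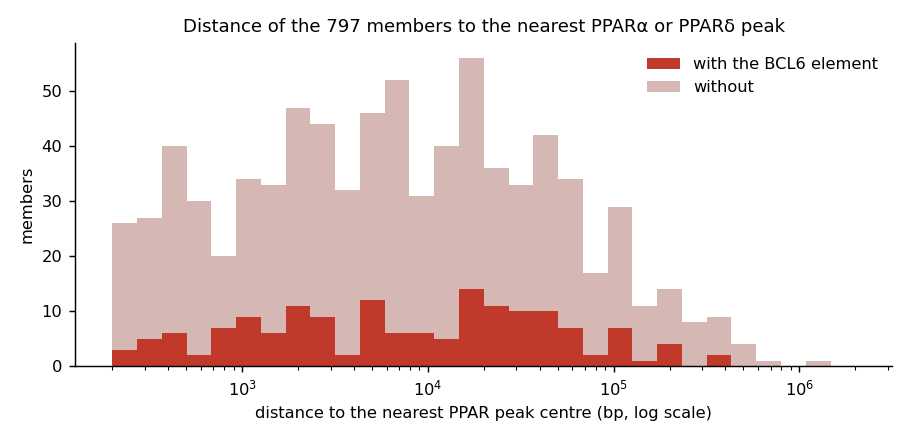
Histogram of the 797 members by distance in bp, on a log scale, to the nearest PPARα or PPARδ peak center; colors divide members with and without the BCL6 element in the central 50 bp. Distances start at 201 bp by the rule, the median is 6935 bp, and 11 of the 70 members over 100000 bp away hold the element.

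To ask whether these regions recur in other animals, they were looked up in the floxed list. A fed BCL6 peak lay within 200 bp in floxed livers at 673 of 797 members, 84.4% (81.8% to 86.8%), against 69.4% of all fed BCL6 peaks. Fed BCL6 peaks without PPAR that had no fasted counterpart recurred far less often, at 944 of 2548, 37.0% (35.2% to 38.9%). The odds ratio was 9.22 (7.47 to 11.4), with an adjusted p of 1.18e-128 in a two-sided Fisher's exact test. By the rule, members had been called in both the fed and the fasted BCL6 list, and the peaks compared in the fed list only. The comparison thus set peaks called repeatedly against peaks that were not, and how far that choice made the difference was not tested. Peaks kept with PPAR recurred slightly more often than members, at 6110 of 6859, 89.1% (88.3% to 89.8%), an odds ratio of 0.67 (0.54 to 0.82) and an adjusted p of 0.000198. Members thus lay between both classes, closer to the peaks kept with PPAR. Fed BCL6 peaks with PPAR and no fasted counterpart recurred at 3133 of 5438, 57.6% (56.3% to 58.9%). Lower recurrence without a fasted call was thus not particular to peaks without PPAR. Where called, the floxed center lay a median of 16 bp from the member's center. The median was 19 bp at peaks kept with PPAR and 24 bp at BCL6 peaks alone and not called after fasting.

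**Figure D2:**
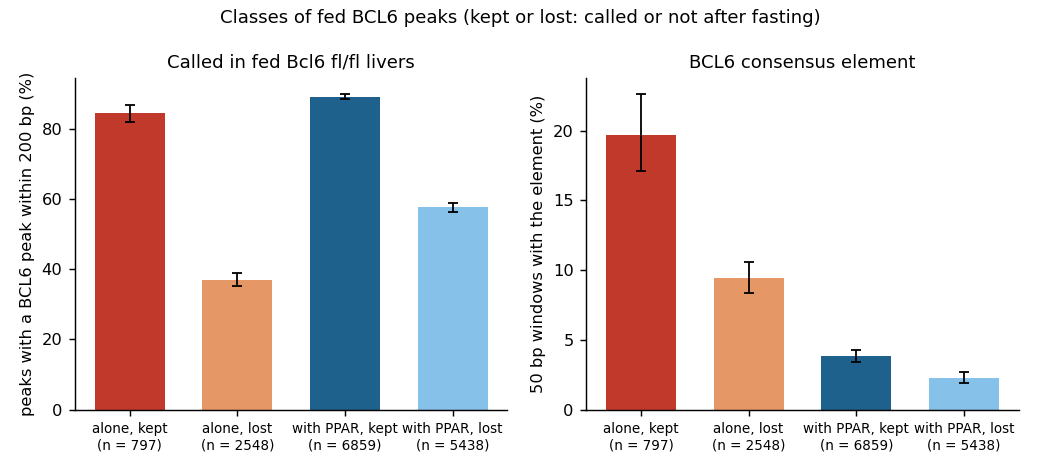
Left, share of fed BCL6 peaks with a BCL6 peak in floxed fed livers; right, share with the BCL6 element in the central 50 bp; bars are the 4 classes of fed BCL6 peaks and error bars 95% Wilson intervals. Members (alone, kept) reach 84.4% and 19.7%, and the element share falls to 9.42%, 3.82% and 2.30% in the other classes.

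The BCL6 element was more frequent at members than in the other classes. Peaks alone and not called after fasting also held it above the share of all fed BCL6 peaks. Members are by rule called in both states, and whether that choice raises the share was not tested. The BCL6 element occurred in the central 50 bp of 157 members, 19.7% (17.1% to 22.6%), against 5.01% of all fed BCL6 peaks. It occurred in 9.42% (8.35% to 10.6%) of peaks alone and not called after fasting, and in 3.82% (3.39% to 4.30%) of peaks kept with PPAR. In windows 1000 bp to either side of the members it occurred in 1.63% (1.12% to 2.38%). Odds ratios were 2.36 (1.88 to 2.95, adjusted p = 7.84e-13) against the peaks lost alone, 6.17 (4.95 to 7.68, adjusted p = 1.86e-51) against the peaks kept with PPAR and 14.8 (9.60 to 23.6, adjusted p = 1.86e-51) against the flanks, by two-sided Fisher's exact tests adjusted over 39 tests of 13 elements. The difference held among peaks that floxed livers shared, where 141 of 673 members had the element (21.0%), against 12.0% of peaks lost alone (odds ratio 1.95, 1.47 to 2.58, adjusted p = 4.55e-06) and 4.03% of peaks kept with PPAR (odds ratio 6.31, 5.0 to 7.95, adjusted p = 8.05e-48). That restriction was chosen after the data were seen. Members were still mostly without a match: 640 of 797 held no BCL6 element in this window, 148 held 1, and 9 held 2 or more.

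Elements were centered on the peaks. Within 20 bp bins along 500 bp to either side, the density was highest next to the center, at 5.08 elements per peak and kb, and fell to a mean of 0.41 beyond 300 bp. At peaks lost alone it rose from 0.40 to 2.41, and at peaks kept with PPAR from 0.37 to 1.16. Because the distant levels were alike in the 3 classes, the differences lay at the centers.

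**Figure D3:**
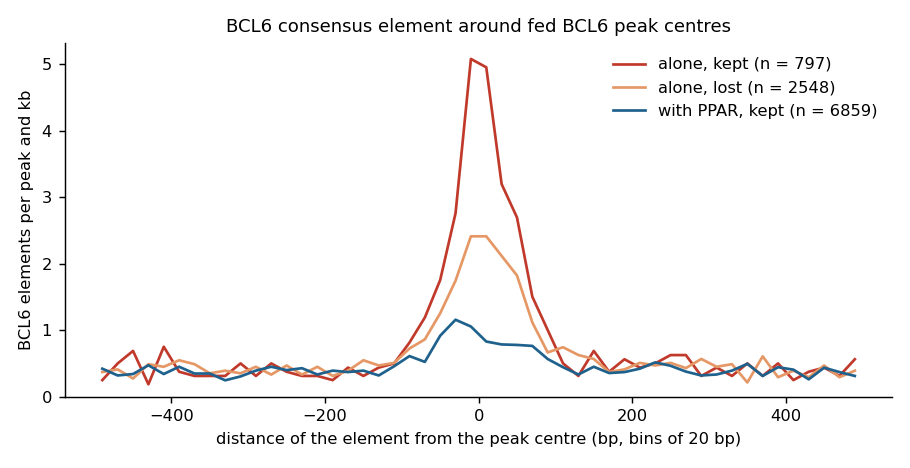
Density of the BCL6 element (at most 1 mismatch, both strands) per peak and kb, in bins of 20 bp by distance from the fed BCL6 peak center, for members and for the most similar classes. Members peak at 5.08 next to the center, peaks lost alone at 2.41 and peaks kept with PPAR at 1.16.

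Certain forms of the element were more frequent than others. The exact consensus TTCCTAGAA was present at 40 members (5.02%), in 1.22% of peaks lost alone and 0.60% of peaks kept with PPAR. TTCCTGGAA, which also fits the STAT5 core TTCCNGGAA, was at 23 members (2.89%), against 1.77% and 0.95%. TTCCTAGAG was at 20 members (2.51%), against 0.78% and 0.12%, and TTCCAAGAA at 12 (1.51%), against 0.63% and 0.16%. Over the 10 most frequent words, the ratio of the share at members to that at peaks kept with PPAR ran from 3.05 for TTCCTGGAA and 3.13 for TTCATAGAA to 21.5 for TTCCTAGAG. These words were ranked by their number at members, so the ratios are descriptions.

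STAT-type elements followed the BCL6 element, with which they share letters. The palindrome TTCNNNGAA was at 110 members, 13.8% (11.6% to 16.4%), against 7.97% of peaks lost alone (adjusted p = 7.53e-06), 3.64% of peaks kept with PPAR (adjusted p = 1.91e-26) and 4.48% of all fed BCL6 peaks. Of these 110 members, 94 also matched the BCL6 element. The STAT5 core was at 23 members (2.89%), against 0.98% of peaks kept with PPAR (odds ratio 3.01, 1.78 to 4.93, adjusted p = 0.000107) and 0.991% of all fed BCL6 peaks. Against the 1.77% of peaks lost alone, the test was not passed (odds ratio 1.65, 0.95 to 2.81, adjusted p = 0.148), although it was in the whole peak (adjusted p = 0.00632) and with repeats hidden (adjusted p = 0.0284). All 23 members with the STAT5 core also matched the BCL6 element, so these tests are not separate from those of the BCL6 element.

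Nuclear receptor elements were searched as the sites that PPARs and HNF4 can read. The half-site AGGTCA was at 50 members, 6.27% (4.79% to 8.18%), below the 9.87% of peaks kept with PPAR (odds ratio 0.61, 0.44 to 0.82, adjusted p = 0.00182) and the 9.11% of all fed BCL6 peaks. Against the 5.85% of peaks lost alone the test did not pass (odds ratio 1.08, 0.76 to 1.51, adjusted p = 0.82). All 3 nuclear receptor elements were nevertheless more frequent at members than in their flanks, with odds ratios of 2.16 for the half-site (adjusted p = 0.000736), 4.30 for DR1 (adjusted p = 0.000576) and 3.75 for the HNF4 site (adjusted p = 4.18e-07). DR1, the direct repeat of 2 half-sites with 1 base between that PPAR and RXR bind together, was at 19 members with up to 2 mismatches, 2.38%, against 2.86% of peaks kept with PPAR (odds ratio 0.83, 0.49 to 1.34, adjusted p = 0.747) and 2.77% of all fed BCL6 peaks. In the whole peak interval, however, DR1 was less frequent at members than at peaks kept with PPAR, with an odds ratio of 0.46 (0.34 to 0.62, adjusted p = 4.27e-08). With 1 mismatch fewer that odds ratio was 1.89 (0.70 to 4.38, adjusted p = 0.254). Against the 1.45% of peaks lost alone, DR1 did not pass in the central window (odds ratio 1.66, 0.89 to 2.98, adjusted p = 0.177). It passed there with 1 mismatch fewer (4.50, 1.23 to 18.0, adjusted p = 0.0268) but not in the whole peak (0.86, 0.61 to 1.20). The HNF4 site CAAAGTCCA was at 5.65% of members and 6.04% of all fed BCL6 peaks, and only in wider windows lower than at peaks kept with PPAR (whole peak, odds ratio 0.74, 0.60 to 0.89, adjusted p = 0.00284). Together, 12.4% of members held DR1, a half-site or the HNF4 site in the central window, against 17.1% of peaks kept with PPAR and 10.6% of peaks lost alone. These motif matches say nothing of whether a receptor was bound.

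Elements of other liver factors were present at members above their flanks. Flanks of the other classes were not tested, so this excess is not shown to be particular to members. FOXA1 and FOXA2, which open liver chromatin, read TGTTTAC, found at 2.26% of members against 0.38% of flanks (adjusted p = 0.000107) and 3.19% of all fed BCL6 peaks. The C/EBP site TTGCGCAA was at 3.39% with at most 1 mismatch, against 0.38% of flanks (adjusted p = 5.48e-08) and 3.77% of all fed BCL6 peaks. The HNF6 site TATTGAT was at 5.77%, against 0.75% of flanks (adjusted p = 2.93e-12) and 4.67% of all fed BCL6 peaks. No test of these 3 elements against the other BCL6 classes passed in the central window, with adjusted p between 0.164 and 0.82, but in the whole peak the C/EBP site was less frequent at members than at peaks kept with PPAR (odds ratio 0.50, 0.38 to 0.66, adjusted p = 2.20e-07) and the HNF6 site less frequent than at peaks lost alone (odds ratio 0.67, 0.52 to 0.86, adjusted p = 0.00224). The AP-1 site TGANTCA was at 2.01% of members and 2.17% of all fed BCL6 peaks. CTCF, by its consensus with at most 1 mismatch, was at 2 members (0.25%) and 0.192% of fed BCL6 peaks. Neither passed a test in the central window. In the whole peak, CTCF was more frequent at members than at peaks kept with PPAR (odds ratio 2.09, 1.24 to 3.38, adjusted p = 0.00822). AP-1 was there more frequent than in the flanks (odds ratio 1.60, 1.17 to 2.20, adjusted p = 0.00519). Their other comparisons in the whole peak did not pass. The CREB site TGACGTCA and the ETS site CCGGAAG were at 0 of 797 members, which at 3 counts for a count of 0 allows a share of up to 0.376% (Wilson upper limit 0.480%), against 0.0448% and 0.153% of all fed BCL6 peaks. No listed element was found in the window of 459 members, 57.6%, compared with 67.2% of peaks lost alone and 66.6% of peaks kept with PPAR.

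**Figure D4:**
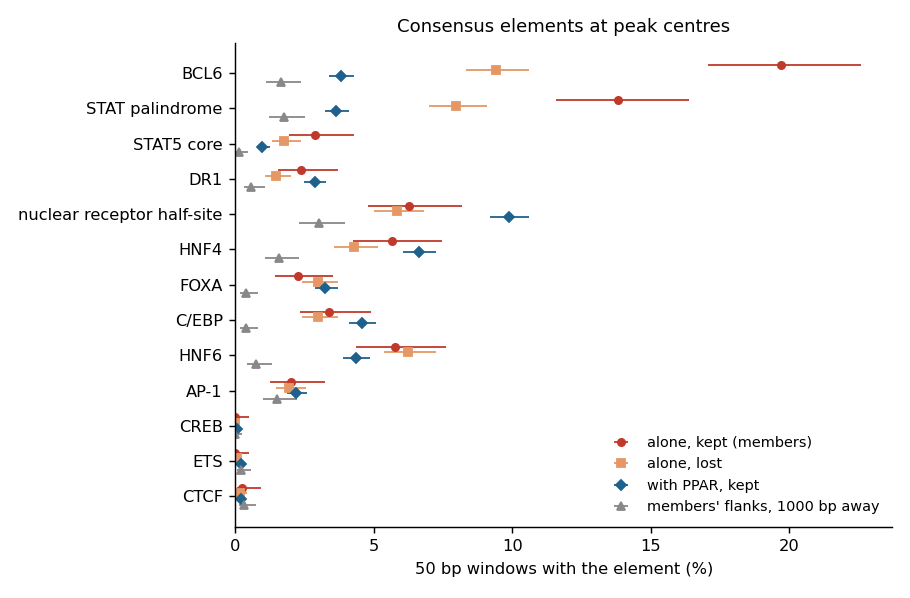
Share of 50 bp windows with each of 13 consensus elements at members, at peaks alone and not called after fasting, at peaks kept with PPAR, and in the members' flanks; bars are 95% Wilson intervals. Members stand above the other classes for the BCL6 element (19.7%) and the STAT palindrome (13.8%), and below peaks kept with PPAR for the nuclear receptor half-site (6.27% against 9.87%).

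Members near to and far from PPAR peaks were then compared with each other. The BCL6 element was at 134 of 649 members over 1000 bp from a PPAR center (20.6%) and at 23 of 148 nearer ones (15.5%), an odds ratio of 1.41 (0.86 to 2.41, adjusted p = 0.205). Floxed livers shared 84.9% of the farther and 82.4% of the nearer members (odds ratio 1.20, 0.71 to 1.96, adjusted p = 0.452). Members with the element were called in floxed livers at 141 of 157 (89.8%) and those without it at 532 of 640 (83.1%), an odds ratio of 1.79 (1.01 to 3.35) whose adjusted p of 0.056 did not pass. These comparisons, adjusted over 6 tests, were added after the data were seen.

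In base composition members resembled the other fed BCL6 peaks. Their median GC content was 43.3% (quartiles 39.2% and 47.0%), against 41.9% for peaks lost alone and 44.7% for peaks kept with PPAR. The median number of CpG was 2 in all 3 classes. Repeats covered a mean of 13.5% of member bases, against 15.1% and 11.1%. Members were spread over the chromosomes, from 3.64% of the fed BCL6 peaks of chromosome 10 to 7.10% of those of chromosome 13, and neither of the 2 peaks on Y was one. They stood farther from their neighbors than peaks kept with PPAR, with a median of 18.0 kb to the next fed BCL6 center against 7.19 kb, while peaks lost alone had 21.3 kb.

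Most members lay away from genes' starts. The median distance to the TSS of a protein-coding gene was 22.7 kb (quartiles 6.44 and 67.9 kb), against 31.1 kb for peaks lost alone and 25.2 kb for peaks kept with PPAR. Inside genes but outside promoters lay 449 members (56.3%), of all 797 members 154 in intron 1 of the nearest transcript, and 306 (38.4%) were intergenic. A promoter was taken to reach 1000 bp upstream and 100 bp downstream of a TSS. By this measure 42 members (5.27%, 3.92% to 7.05%) were promoter peaks, against 4.36% of all fed BCL6 peaks. This did not pass against the 3.85% of peaks lost alone (odds ratio 1.39, 0.94 to 2.04, adjusted p = 0.17) or the 4.55% of peaks kept with PPAR (odds ratio 1.17, 0.82 to 1.63, adjusted p = 0.372). It passed against both with wider promoters: from 5000 bp upstream to 1000 bp downstream, the odds ratios were 1.62 (1.29 to 2.03, adjusted p = 5.11e-05) and 1.27 (1.04 to 1.55, adjusted p = 0.0187). Of the 42 promoter members, 14 held the BCL6 element (33.3%, 21.0% to 48.4%), against 143 of 755 other members (18.9%). The odds ratio was 2.14 (1.01 to 4.33), and its adjusted p of 0.056 did not pass. That comparison was among the 6 tests added after the data were seen.

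Some promoter members are named after their positions were seen. *Klb*, which encodes the β-Klotho coreceptor of FGF21, had a member 910 bp upstream, and *Notch1* had one 248 bp upstream that held the BCL6 element. *Psmd3* encodes a subunit of the proteasome, and its member lay 131 bp upstream of the TSS. *Nox4*, which encodes an NADPH oxidase and is on the list of sex-biased genes, had a member 596 bp upstream with the BCL6 element that was not called in floxed livers.

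By nearest TSS, members were spread over 742 genes, of which 690 had 1 member, 49 had 2 and 3 had 3. *Hic2*, *Nav2* and *Rab3c* had 3 members each. *Hic2* encodes a BTB zinc finger repressor, and all 3 fed BCL6 peaks nearest to it were members, in its intron 1 at 1.93, 14.4 and 18.1 kb from the TSS. None of the 3 held the BCL6 element, and each was called in floxed livers. The PPARα and PPARδ lists had a peak at the *Hic2* TSS instead. *Nav2*, a gene of axon growth, had 11 fed BCL6 peaks, of which 3 were members and 5 were kept with PPAR. Among genes with 2 members in alphabetical order were *Adamts5*, a matrix protease, the adhesion receptors *Adgrl2* and *Adgrl3*, *Adk*, which encodes adenosine kinase, the calcium pump gene *Atp2b1*, *Atxn7* and *Bcor*. At *Adgrl2* these were 2 of 33 fed BCL6 peaks. Gene names depend on the annotation: with predicted RefSeq transcripts included, 751 members (94.2%) kept their nearest gene, the 3 members at *Rab3c* became nearest to *Pde4d*, 2 of those at *Hic2* became nearest to *Tmem191c*, and *Prdm1* had 3. Of the 742 genes, 504 (67.9%) were also nearest to a fed BCL6 peak with PPAR and 238 (32.1%) were not.

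Gene lists were compared by their share of members and of all fed BCL6 peaks, with no test. Classical BCL6 targets of lymphocytes had 5 members at 4 genes (0.63%), against 0.722% of all fed BCL6 peaks. *Prdm1*, which encodes the plasma cell factor BLIMP1, had 2 of its 9 fed BCL6 peaks among members, in intron 2 at 3.68 kb from the TSS and 18.5 kb upstream. Their nearest PPAR centers lay 7387 and 2755 bp away, and both were called in floxed livers. *Id2*, an inhibitor of basic helix-loop-helix factors, had a member 4.00 kb upstream, *Bcl6* itself one 23.3 kb upstream, and *Tlr4* one 54.7 kb from its TSS, downstream of the gene.

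**Figure D5:**
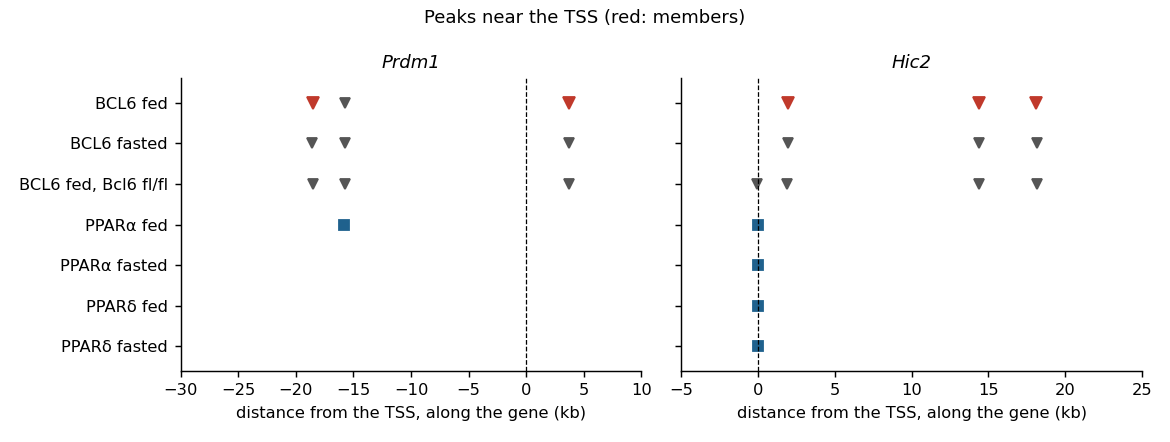
Peak centers of the 7 lists around the TSS of *Prdm1* (from 30 kb upstream to 10 kb downstream) and *Hic2* (from 5 kb upstream to 25 kb downstream), as distance in kb along the gene; rows are lists and red triangles are members. By the rule, members have a fasted BCL6 center and no PPAR center within 200 bp. Each member shown also has a floxed BCL6 peak, which the rule did not use. PPAR peaks lie at the *Hic2* TSS, and a fed PPARα peak lies 15.8 kb upstream of *Prdm1*.

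Corepressor genes had 4 members at 3 genes (0.50%), against 0.511% of fed BCL6 peaks. The only fed BCL6 peak nearest to *Ncor1*, the nuclear receptor corepressor that BCL6 recruits, was a member, 2.54 kb upstream of the TSS and called in fasted and floxed livers as well. *Bcor*, a partner of the BCL6 BTB domain, had 2 of 17, one of them with the BCL6 element. *Zbtb20*, a BTB zinc finger repressor abundant in liver, had 1 of 12, in intron 2.

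Growth hormone, STAT and SOCS genes, through which pituitary growth hormone shapes male and female liver, had 4 members (0.50%), against 0.844% of fed BCL6 peaks and 1.11% of peaks kept with PPAR. They were at *Lepr*, the leptin receptor gene, 1.72 kb upstream, at *Bcl6*, at the phosphatase gene *Ptpn1* and at the cytokine receptor gene *Lifr*. Genes with sex-biased liver expression had 9 members at 7 genes (1.13%), against 0.786% of fed BCL6 peaks. *Fmo2*, a flavin monooxygenase gene, had 2, at 458 bp and 6.26 kb inside the gene, both called in floxed livers. Further members were at the cytochrome P450 genes *Cyp2b10*, *Cyp3a16* and *Cyp3a44*, at *Nox4*, and 2 at *Tox*. The *Cyp3a* genes are near-identical copies, and peaks there may be incomplete.

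The list named for fatty acid oxidation and ketogenesis also holds genes outside these pathways, such as *Plin2*. It had 5 members (0.63%), against 0.940% of fed BCL6 peaks, 1.44% of those kept with PPAR and 0.20% of those lost alone. They were at *Acot4*, *Ehhadh*, *Pdk4*, *Plin2* and *Por*, between 4.01 and 25.5 kb upstream. *Ehhadh* encodes a peroxisomal enzyme of β-oxidation, and its member held the BCL6 element, although with predicted transcripts included the nearest gene was *Map3k13*. Lipogenesis genes had 3 (0.38%, against 0.473%), at *Fads1*, *Elovl6* and *Insig1*. Genes of glucose metabolism and insulin signaling had 9 members at 8 genes (1.13%). This compared with 1.0% of fed BCL6 peaks, 1.46% of those kept with PPAR and 0.43% of those lost alone. The gluconeogenic gene *Pck1* had 2 of its 6 fed BCL6 peaks among members, 16.3 and 10.0 kb upstream, and *G6pc* had one 206 bp from a PPAR center, just outside the limit. Others were at *Insr*, *Irs2*, *Pik3r1*, *Ppp1r3c*, *Slc2a2* and *Trib1*.

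Among the remaining lists, hepatocyte transcription factors and receptors had 6 members (0.75%, against 1.22%), at *Esr1*, *Nr3c1*, *Nr5a2*, *Onecut1*, *Prox1* and *Tbx3*. The circadian clock had 1 (0.13%, against 0.428%), 1.29 kb into the repressor gene *Cry1*, which held the BCL6 element. Chemokines and their receptors had 1 (0.13%, against 0.185%), 668 bp into *Cxcl9*. Ribosomal protein genes had 2 (0.25%, against 0.217%), and olfactory receptor genes, which are not used by liver, had 2 (0.25%, against 0.224%). With 1 to 9 members a list, intervals were wide, as for the oxidation list from 0.27% to 1.46%, and for each of the 12 lists the interval of the members' share held the share of all fed BCL6 peaks.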

How the data were processed

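The measurements are ChIP-seq of BCL6, PPARα and PPARδ in mouse liver. Of the deposited lists, 7 that pool 21 of the 59 samples were used, 3 biological replicates in each. Livers were crosslinked with DSG and formaldehyde. The authors used Bowtie and mm10 for the alignment, kept uniquely mapped reads and 1 read per position, called peaks on pooled replicates against input with HOMER, and filtered them with DESeq2 on the tags of the single libraries. The deposited values are positions in bp, with no count, score or normalization, so depth is unknown and near-identical copies can lack peaks. Histone and knockout samples of the series were not analysed here.

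Here a center within 200 bp counted as shared, as in the study. Annotation and sequence were from RefSeq GRCm38, the mm10 assembly: 45703 curated transcripts, and 21000 protein-coding genes for the nearest TSS within 1 Mb. The use of curated transcripts, as in earlier work on these lists, was settled after the files were read. Elements were searched on both strands, without masking of repeats, in 50 bp windows and in windows 1000 bp to either side. Fisher's exact tests (two-sided) compared the shares, with Benjamini-Hochberg adjustment over each group of tests (2 floxed, 2 promoter, 39 element and 6 added tests) at 0.05. In the flank tests the 1594 flanking windows entered as separate units, so their pairing with the 797 members was not used. Members, elements and gene lists were chosen with earlier results of these data known. Named genes were the 10 with the most members, listed genes nearest to a member, and those said to be named afterwards. Some listed genes are not reported here by name. Functions were tested on simulated data. Alternatives changed the distances, windows, mismatches, masking, flanks, promoters, chromosomes and PPAR lists. Python 3.11.15, NumPy 2.4.6, SciPy 1.17.1, pysam and Matplotlib were used.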

Additional observations from a re-analysis of the deposited data

How the results depend on the processing

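The lists pool replicates, so no replicate could be left out and no spread between animals enters any value. No paired analysis was possible because each list pools the replicates of a group. Members numbered 880, 740 and 792 with centers within 100 bp, within 400 bp or by overlap of the intervals, and 817 with PPARα lists alone. Leaving out members with a PPAR center near the fasted BCL6 center, an alternative added after the data were seen, left 789 and changed no call. The odds ratio of the BCL6 element kept its direction and passed in all 8 alternatives against peaks lost alone (1.95 to 4.29), all 8 against peaks kept with PPAR (4.58 to 8.78) and all 6 against the flanks (10.0 to 21.0). The floxed comparisons kept theirs in 7 alternatives each (8.72 to 9.45, and 0.66 to 0.70).

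The promoter share came to pass the test against peaks lost alone and peaks kept with PPAR when promoters ran 1000 bp to either side (odds ratios 1.46 and 1.37) or from 5000 bp upstream to 1000 bp downstream (1.62 and 1.27), and against peaks lost alone when predicted transcripts were included (1.53), an alternative added after the data were seen.

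Other elements that had not passed changed direction in 20 settings, and in none of these did the alternative pass either. With the whole peak, odds ratios against peaks lost alone became 0.86 for DR1, 0.85 for the half-site and 0.86 for C/EBP, those against peaks kept with PPAR 0.99 for HNF6 and 1.08 for AP-1, and CTCF against flanks 1.34. With 100 bp windows, half-site and C/EBP against peaks lost alone became 0.96 and 0.82, AP-1 against peaks kept with PPAR 1.23, and CTCF against flanks 1.09. With 1 mismatch fewer, DR1, C/EBP and CTCF against peaks kept with PPAR became 1.89, 1.23 and 0. With repeats hidden, HNF6 and CTCF against peaks lost alone became 1.06 and 0.80, and CTCF against peaks kept with PPAR 0.72. Class distances of 100 and 400 bp gave 0.94 and 0.96 for AP-1 and 400 bp gave 0.98 for the half-site, against peaks lost alone. Among peaks shared with floxed livers, CTCF against peaks kept with PPAR became 0.76. A further 13 comparisons of single elements came to pass without changing direction, 7 with the whole peak, 4 with 100 bp windows and 1 each with fewer mismatches (DR1 against peaks lost alone, 4.50) and with repeats hidden. The causes were not tested.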

Other observations

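The BCL6 element was also counted in related regions that are no members, as values without a test. Fasted BCL6 peaks with no fed BCL6 and no PPAR peak held it in 54 of 525 windows, 10.3% (8.0% to 13.2%), close to the peaks alone and not called after fasting, and fasted BCL6 peaks with PPAR and no fed BCL6 peak held it in 2.58% (1.88% to 3.54%). Fed PPARα peaks with no BCL6 peak in any of the 3 BCL6 lists held it in 83 of 6699 windows, 1.24% (1.0% to 1.53%). In the floxed list, peaks without a PPAR peak held it in 20.3% (17.7% to 23.1%) of 858 windows where C57BL/6 fasted livers also had a BCL6 peak and in 11.8% (10.7% to 13.0%) of 2977 where they had none. Of the 858 floxed peaks, 666 (77.6%) lay within 200 bp of a member, so this repeats the measurement and is not separate support for it.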
